A study of Homo sapiens with 6 samples.

Results

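The 9 genes described here carry the detection of double-stranded RNA in the cytoplasm and the first steps of the signal that follows: the helicases IFIH1 and DHX58, the ubiquitin ligase TRIM25, the adaptor MAVS, the kinases TBK1 and IKBKE, the transcription factor IRF3, the kinase EIF2AK2 and the RNA editing enzyme ADAR. They were taken by symbol from a deposited table of 31853 genes, and all 9 were found and had counts high enough to enter the test over 18138 genes. The study asked how gene expression changed in Mon-Mac-6 cells after 48 h with 500 nM WD6305, which the series title calls a PROTAC directed at METTL3, against 48 h with DMSO, the vehicle. Mon-Mac-6 is an established human cell line of monocytic acute leukaemia, and all 6 libraries come from this line, 3 with DMSO and 3 with WD6305. A PROTAC joins a ligand of its target to a ligand of a ubiquitin ligase. Poly(A) RNA was sequenced in pairs of reads. Nothing in the labels places the 3 libraries of a group in separate cultures, so the p-values speak only of how much these samples vary, which may be technical variation.

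Double-stranded RNA forms during the replication of many viruses and from paired repeats in a cell's own transcripts. In the cytoplasm it is bound by RIG-I (gene RIGI) and MDA5 (gene IFIH1), which then act on MAVS at the mitochondrial surface. MAVS recruits the kinases TBK1 and IKK-epsilon (gene IKBKE), which phosphorylate IRF3 so that it enters the nucleus and helps switch on interferon beta. PKR (gene EIF2AK2) is a second type of sensor, which stops translation by phosphorylating eIF2-alpha, and ADAR edits adenosines in paired RNA so that it is less readily sensed. METTL3 is the enzyme that adds N6-methyladenosine to messenger RNA. Many genes of this pathway are themselves induced by interferon in monocytic cells.

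The deposited counts summed to between 64525948 and 71155346 per library. Levels below are CPM, counts relative to the library size after scaling with TMM factors of 0.987 to 1.02, and fold changes compare WD6305 with DMSO. A gene is called higher or lower where the adjusted p of the edgeR quasi-likelihood test, with Benjamini-Hochberg correction over the 18138 genes, is under 0.05. DMSO 3 and WD6305 1 stand apart from the other 4 libraries on the second principal component, which takes 16.3% of the variance, with scores of -14.1 and -8.18 against 4.11 to 7.37. The summed level of 10 matched keratinocyte markers was 6.86 and 6.61 CPM in these 2 libraries and 201 to 247 CPM in the other 4, with KRT2 at 0 in each. Summed fibroblast markers reached 42.8 CPM in WD6305 1 against 1.44 to 2.60 CPM elsewhere. All 10 monocytic markers were detected, at a summed level of 6400 to 6863 CPM with DMSO and 10484 to 11936 CPM with WD6305, and most of that sum was LYZ, the lysozyme gene, at 5507 ± 250 and 10044 ± 773 CPM (mean ± SD, n = 3). Of the 10, 7 were called higher, 2 lower (CD14 and MPO, by -0.37 and -0.35 on the log2 scale) and 1, CEBPA, was not called, and the part of these changes in the results below was not tested. Markers of T and NK cells summed to 138 to 184 CPM, with KLRD1 at 0 in each library, those of B cells to 1.82 to 2.96 CPM and those of red cells to 0.0599 to 0.732 CPM. Most of the T and NK sum was NKG7, at 164 ± 15.6 CPM with DMSO and 152 ± 14.8 CPM with WD6305. CD3D, CD3E and CD3G were not matched. METTL3 RNA was higher with WD6305 (DMSO mean 67.3 ± 2.86 CPM, WD6305 mean 78.0 ± 1.88 CPM, each ± SD over n = 3; log2 fold change 0.21, SE 0.05, adjusted p = 0.0218 in edgeR), and the RNA level of the target does not check the loss of its protein. METTL3 no longer passed in edgeR (adjusted p = 0.0501 to 0.0931) without DMSO 2 or any single WD6305 library, at 0.0588 in the 4 other libraries and at 0.0559 with upper-quartile scaling.

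Of the 9 members, 2 rose with WD6305, DHX58 and IRF3, and 7 did not pass the test. That is 22.2% of the members, beside 23.4% of all tested genes called in either direction, 12.2% higher and 11.2% lower, so the share called among the members was near the background. In edgeR 0 members were lower at the adjusted threshold and 0 at an unadjusted p under 0.05, while 5 were higher at that unadjusted level. DESeq2 called 3 members higher, adding TBK1, and 0 lower. The log2 fold change was above 0 for 8 members, against 50.1% of all tested genes, and below 0 for EIF2AK2. Its median was 0.15 over the members and 0.00 over all tested genes. The 3 WD6305 libraries lay wholly above the 3 DMSO libraries in CPM for 5 members, IFIH1, DHX58, ADAR, IRF3 and TRIM25, and 40.8% of all tested genes had groups that did not overlap in either direction. The 2 calls were not stable. With each library left out in turn the number of members called was between 0 and 4: 0 without DMSO 2 or without WD6305 3, 1 without DMSO 1 or without WD6305 2, and 4 without DMSO 3.

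Seen per length, the members spanned a wide range. The deposited FPKM, which divides by transcript length, was highest for ADAR, at 27.4 ± 1.27 with DMSO and 28.2 ± 0.135 with WD6305 (mean ± SD, n = 3). It was lowest for DHX58, at 0.873 ± 0.0289 and 1.22 ± 0.0611. Between them, in the DMSO group, came IRF3 at 16.2, IKBKE at 14.5, TRIM25 at 11.9, MAVS at 8.89, EIF2AK2 at 3.24, IFIH1 at 2.29 and TBK1 at 1.57 FPKM. The order of the mean FPKM was the same with WD6305. Neighbours in this order had ranges that did not overlap, except IFIH1 and TBK1 with DMSO, and EIF2AK2 and IFIH1 with WD6305. This order depends on the length the authors divided by, which the sources used here do not state. One FPKM corresponded to 15.7 CPM for TBK1 and to 4.02 CPM for IKBKE, though their longest coding transcripts have 3256 and 3221 bases, and TBK1, below IFIH1 in FPKM, was above it in CPM. ADAR was 31.4-fold above DHX58 with DMSO and 23.1-fold above it with WD6305. Among all tested genes, the mean FPKM of the members fell between the 40.1 percentile (DHX58) and the 91.9 percentile (ADAR).

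**Figure D1:**
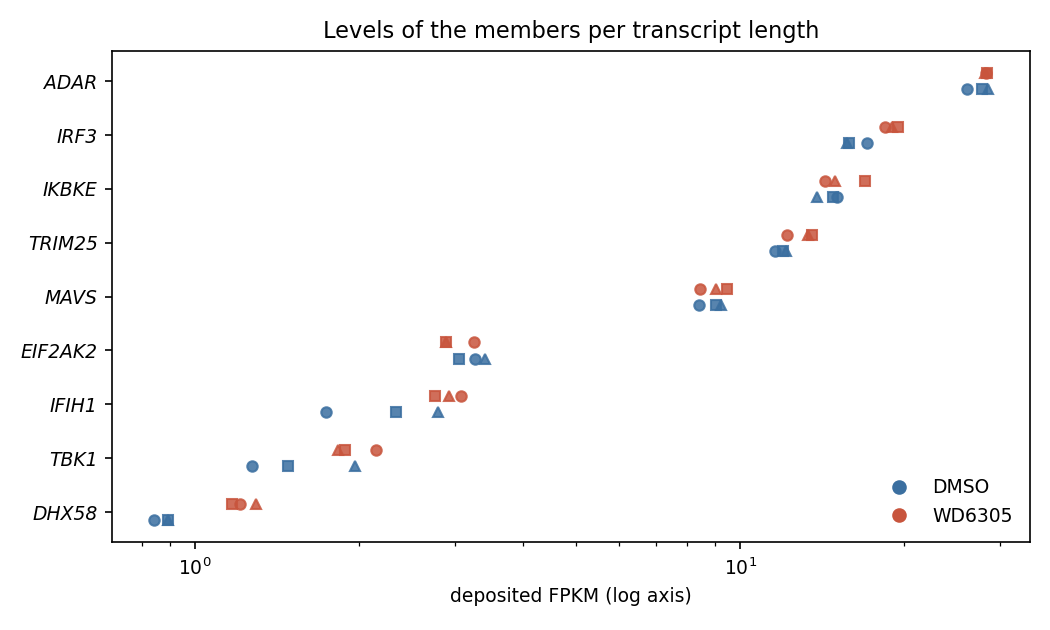
Deposited FPKM of each member (x axis, logarithmic) in the 3 DMSO libraries (blue) and the 3 WD6305 libraries (red), with circles, squares and triangles for replicates 1, 2 and 3 and genes ordered by the DMSO mean. ADAR lies at 26.0 to 28.5 FPKM and DHX58 at 0.84 to 1.29 FPKM, and the DMSO points of IFIH1 and TBK1 spread more widely than those of the other members.

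IFIH1 (ENSG00000115267, chr2:162267074-162318684 on GRCh38, minus strand) encodes MDA5, which binds long double-stranded RNA. Its promoter and that of EIF2AK2 are shown because both genes encode sensors of the same ligand and are known to be induced by interferon, and the motif below is found in one window and not in the other. Each sequence is the 250 bases before the start in RefSeq, 5′ to 3′ on the strand of the gene (RefSeq, GRCh38.p14): chr2:162318685-162318934, minus strand, for IFIH1 and chr2:37156981-37157230, minus strand, for EIF2AK2. Capitals mark matches to the core letters of the interferon-stimulated response element, GAAA, any 2 bases and GAAA again, searched on both strands.
IFIH1: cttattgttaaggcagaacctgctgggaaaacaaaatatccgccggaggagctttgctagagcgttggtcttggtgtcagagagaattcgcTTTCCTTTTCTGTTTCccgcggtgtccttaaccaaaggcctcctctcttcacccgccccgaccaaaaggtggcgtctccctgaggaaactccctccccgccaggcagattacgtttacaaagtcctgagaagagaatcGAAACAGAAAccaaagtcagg
EIF2AK2: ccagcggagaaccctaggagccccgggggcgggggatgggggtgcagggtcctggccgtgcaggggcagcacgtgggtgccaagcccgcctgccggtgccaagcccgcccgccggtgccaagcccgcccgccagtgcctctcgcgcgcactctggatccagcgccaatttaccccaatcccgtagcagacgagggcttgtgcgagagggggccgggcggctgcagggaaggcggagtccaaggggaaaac
In IFIH1 there were 3 matches, on the reverse strand from 159 to 150 and from 153 to 144 bases before the start, which overlap each other, and on the forward strand from 21 to 12 bases before it. The window of EIF2AK2 holds 0 matches, which says only that these letters are not in this window. It ends in GAAA and 2 further bases, so a match that runs past the start would be cut. Bases beyond the start were not searched. That window lies inside the gene as the deposited table gives it, since the table places the start of EIF2AK2 further upstream than RefSeq does. RefSeq promoters were found for 7 of the 9 members, and DHX58 and IRF3 had no entry. Of these 7 genes, 1 had the motif, IFIH1, against 3.02% of 35116 promoters of the same length. A gene was counted where any of its windows matched, and ADAR had several windows, while the percentages are of single windows. The letters TTCNNNGAA, a core of the gamma-activated site, occurred in 0 of the 7 and in 6.57% of all promoters. The looser NF-kB letters, GGG, any 5 bases and CC, occurred in 5 of the 7 and in 54.4% of all, the GC box GGGCGG in 5 and in 42.6%, and the TATA box letters TATAAA in 1, ADAR, and in 10.7%. These matches describe letters and are not measured binding sites.

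Among the sensors, IFIH1 was higher on average with WD6305 and did not pass the test. Its level was 9.71, 12.9 and 15.1 CPM in DMSO 1, 2 and 3 and 17.2, 15.3 and 16.4 CPM in WD6305 1, 2 and 3. Every WD6305 library was above every DMSO library, though WD6305 2 and DMSO 3 nearly met, and in FPKM they crossed, at 2.75 and 2.79. The DMSO libraries varied by 21.7% of their mean, the largest spread of any member in that group. The log2 fold change was 0.37 (SE 0.15, 95% interval 0.03 to 0.71, adjusted p = 0.108, edgeR), or 1.29-fold. Without DMSO 3, one of the 2 libraries with few keratinocyte marker transcripts, it was 0.53 and passed (adjusted p = 0.0244, edgeR). Without DMSO 1 it was 0.21 and did not. In bulk RNA such as this, fewer cells of one type and less RNA per cell cannot be told apart.

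DHX58 (ENSG00000108771, chr17:42101404-42112714, minus strand) encodes LGP2, a helicase related to MDA5 that lacks its signalling domains and tunes its response to RNA. Its level was 3.45, 3.62 and 3.56 CPM in DMSO 1, 2 and 3 and 5.00, 4.77 and 5.33 CPM in WD6305 1, 2 and 3. The DMSO libraries were tightly grouped and all WD6305 libraries were above them. DHX58 rose 1.42-fold, the largest change among the members (log2 fold change 0.51, SE 0.13, 95% interval 0.21 to 0.81, adjusted p = 0.0236, edgeR; exact two-sided permutation test p = 0.1, the smallest that 3 libraries against 3 can give). The rise was as large, but lost its call, in the 4 libraries with keratinocyte marker transcripts (log2 fold change 0.52, adjusted p = 0.0775, edgeR). It kept its sign and lost its call at adjusted p = 0.0586 to 0.0894 (edgeR) when DMSO 1, DMSO 2, WD6305 1 or WD6305 3 was left out. Absolute counts were low for a member, at 242 to 356 per library.

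The balance between the related helicases was compared within libraries. IFIH1 was 2.07, 2.63 and 3.13 times as high as DHX58 in FPKM in DMSO 1, 2 and 3 and 2.54, 2.35 and 2.26 times in WD6305 1, 2 and 3. The WD6305 ratios lay inside the range of the DMSO ratios. The difference of the log2 ratios was -0.09 (exact two-sided permutation test, p = 0.7), and its sign turned without DMSO 3 (0.05), in the 4 libraries with keratinocyte marker transcripts (0.01) and with a pseudocount of 1 (0.02).

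EIF2AK2 (ENSG00000055332, chr2:37099210-37157522, minus strand) encodes PKR. Its level was 38.2, 35.6 and 38.8 CPM in DMSO 1, 2 and 3 and 38.4, 33.9 and 34.1 CPM in WD6305 1, 2 and 3. WD6305 1 lay among the DMSO libraries and the other two WD6305 libraries lay below them. EIF2AK2 had a log2 fold change of -0.08 (SE 0.08, 95% interval -0.26 to 0.09, adjusted p = 0.505, edgeR). The interval reaches a 1.19-fold decrease, so a change larger than that in this direction lies outside it.

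ADAR (ENSG00000160710, chr1:154581695-154628007, minus strand) encodes ADAR1, the editor of paired RNA. Its level was 339, 358 and 361 CPM in DMSO 1, 2 and 3 and 370, 369 and 370 CPM in WD6305 1, 2 and 3. The WD6305 libraries were close to identical and above each DMSO library in CPM, while in FPKM the groups overlapped, since DMSO 3 had 28.48 and the WD6305 libraries 28.11 to 28.38. With a log2 fold change of 0.07 (SE 0.04, 95% interval -0.03 to 0.16, adjusted p = 0.313, edgeR), ADAR did not pass the test. Its interval has a width of 0.20 on the log2 scale, the narrowest of the 7 members not called.

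TRIM25 (ENSG00000121060, chr17:56836387-56914080, minus strand) encodes a ubiquitin ligase known for its role in activating RIG-I. Its level was 153, 157 and 155 CPM in DMSO 1, 2 and 3 and 162, 178 and 177 CPM in WD6305 1, 2 and 3. All WD6305 libraries were above the DMSO libraries, with WD6305 1 the lowest of them. TRIM25 had a log2 fold change of 0.15 (SE 0.05, 95% interval 0.04 to 0.27, adjusted p = 0.0537, edgeR), or 1.11-fold, just short of the threshold. It was 0.20 and passed without WD6305 1 (adjusted p = 0.0279, edgeR) and in the 4 libraries with keratinocyte marker transcripts (adjusted p = 0.0162, edgeR). The gene overlaps DGKE on the opposite strand over 29690 bases, and DGKE, with 18.4% of the counts of TRIM25, had a log2 fold change of -0.05 (adjusted p = 0.709, edgeR). Strand use in the counting is not stated in the sources used here.

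MAVS (ENSG00000088888, chr20:3846799-3876123, plus strand) encodes the adaptor on which the sensors converge. Its level was 105, 112 and 112 CPM in DMSO 1, 2 and 3 and 106, 118 and 114 CPM in WD6305 1, 2 and 3. Replicate 1 was the lowest library of each group and the groups overlapped. The log2 fold change was 0.04 (SE 0.06, 95% interval -0.09 to 0.16, adjusted p = 0.702, edgeR), and its sign turned with upper-quartile scaling (-0.0029, adjusted p = 0.980, edgeR). The interval reaches a 1.12-fold increase.

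**Figure D2:**
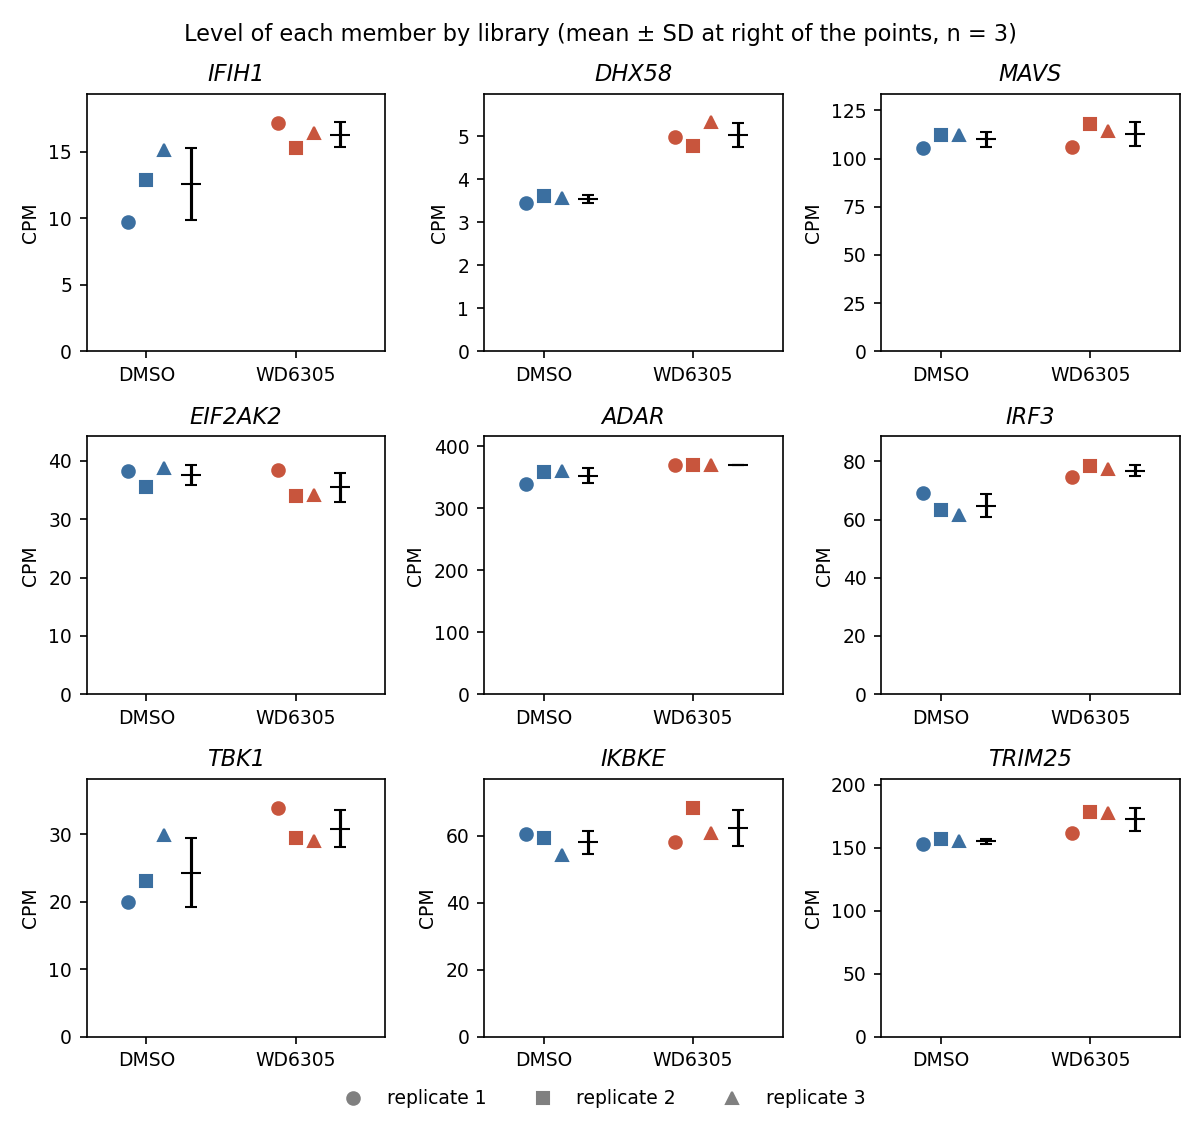
CPM of each member in the DMSO (blue) and WD6305 (red) libraries, with the mean ± SD of the 3 libraries of a group in black at the right of its points and each y axis starting at 0. The groups do not overlap for IFIH1, DHX58, ADAR, IRF3 and TRIM25, and DMSO 3 is the highest DMSO library for IFIH1, at 15.1 CPM, and for TBK1, at 29.9 CPM.

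TBK1 (ENSG00000183735, chr12:64452090-64502114, plus strand) encodes the kinase that phosphorylates IRF3. Its level was 20.0, 23.2 and 29.9 CPM in DMSO 1, 2 and 3 and 34.0, 29.5 and 29.0 CPM in WD6305 1, 2 and 3. DMSO 3 lay within the WD6305 range, and DMSO 1 and 2 lay below it. The log2 fold change was 0.34 (SE 0.14, 95% interval 0.02 to 0.66, adjusted p = 0.119, edgeR), or 1.27-fold, and did not pass. In DESeq2 it passed with a similar estimate of 0.33 (adjusted p = 0.0399). It also passed in edgeR without DMSO 3, at 0.52 (adjusted p = 0.00795), and in the 4 libraries with keratinocyte marker transcripts, at 0.44 (adjusted p = 0.0193). Without DMSO 1 it was 0.22 (adjusted p = 0.313, edgeR) and did not pass. DMSO 3 was the highest DMSO library for IFIH1 as well.

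IKBKE (ENSG00000263528, chr1:206470476-206496889, plus strand) encodes IKK-epsilon, the kinase closest to TBK1. Its level was 60.6, 59.1 and 54.1 CPM in DMSO 1, 2 and 3 and 58.0, 68.3 and 60.6 CPM in WD6305 1, 2 and 3. The groups overlapped, and WD6305 2 was the highest library. IKBKE had a log2 fold change of 0.10 (SE 0.08, 95% interval -0.07 to 0.28, adjusted p = 0.391, edgeR). IKBKE was above TBK1 in every library on both scales, and in the deposited FPKM, with the limit on length given above, it stood at 11.8, 9.98 and 7.04 times TBK1 in FPKM in DMSO 1, 2 and 3 and 6.65, 9.02 and 8.14 times in WD6305 1, 2 and 3. These ratios overlapped between the groups (difference of log2 ratios -0.24, exact two-sided permutation test p = 0.4). The difference was -0.08 without DMSO 1, -0.12 without WD6305 1 and -0.44 without DMSO 3.

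IRF3 (ENSG00000126456, chr19:49659569-49665875, minus strand) encodes the transcription factor these kinases act on. Its level was 69.1, 63.4 and 61.7 CPM in DMSO 1, 2 and 3 and 74.7, 78.5 and 77.4 CPM in WD6305 1, 2 and 3. All WD6305 libraries lay above all DMSO libraries, in FPKM as well. IRF3 rose 1.19-fold (log2 fold change 0.25, SE 0.06, 95% interval 0.11 to 0.38, adjusted p = 0.0175, edgeR; exact two-sided permutation test p = 0.1). The call held in the 4 libraries with keratinocyte marker transcripts and was lost at adjusted p = 0.0589, 0.0699 and 0.0696 (edgeR) without DMSO 2, WD6305 2 and WD6305 3, with the sign kept. IRF3 overlaps BCL2L12 on the opposite strand over 734 bases. BCL2L12 had 72.0% of the counts of IRF3 and a log2 fold change of -0.25 (adjusted p = 0.0597, edgeR), opposite in sign to that of IRF3.

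**Figure D3:**
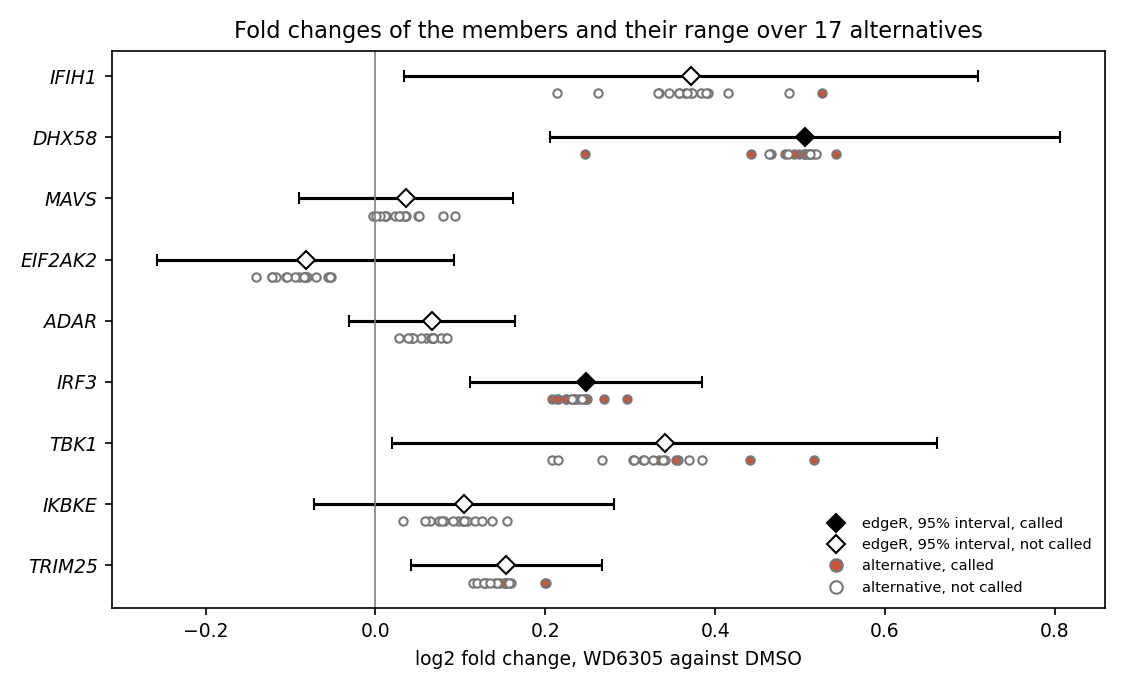
Log2 fold change of each member (diamond) with its 95% interval from edgeR and, below it, the values under 17 alternatives (circles), filled where the member was called. DHX58 and IRF3 are called in the main test, while IFIH1, TBK1 and TRIM25 have intervals above 0 and are called under some alternatives only.

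The letters GGACT, the most common form of the sequence in which METTL3 places N6-methyladenosine, were counted on the longest coding transcript of each member in GENCODE release 29. IRF3 had 3 copies in 1741 bases (1.72 per kb), IFIH1 had 6 in 3595 (1.67 per kb), IKBKE had 5 in 3221 (1.55 per kb) and DHX58 had 4 in 2617 (1.53 per kb). These 4 members lay between the 80.1 and 85.9 percentiles of 13033 tested coding genes, whose median was 0.936 per kb. ADAR was at the 57.1 percentile with 1.05 per kb, TRIM25 and MAVS at the 33.5 and 32.4 percentiles, EIF2AK2 at the 20.4 and TBK1, with 1 copy, at the 11.0. The denser 4 held both called members, DHX58 and IRF3, and also IFIH1 and IKBKE, which were not called. The log2 fold change of IKBKE was 0.10. Whether density goes with the fold changes was not tested. G and C made up 61.5% of the bases of this transcript for IRF3, 58.7% for IKBKE, 58.2% for DHX58 and 43.25% for IFIH1. The share was 52.1% for MAVS, 51.1% for TRIM25, 49.5% for ADAR, 39.25% for TBK1 and 38.7% for EIF2AK2. The part of this share in the densities was not tested. The count of these letters does not measure methylation.

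The other genes of the pathway were described from 7 lists, with 175 entries, 171 matched to the table and 163 tested. Of these, 40 rose and 22 fell, or 38% called, beside 23.4% of all tested genes, and their median log2 fold change was 0.06. Each list is given below by the same count and median, which describe it and do not test it.

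Among the other RNA sensors, 4 of 19 tested genes rose, 2 fell and 13 did not pass, with a median log2 fold change of 0.13. TLR8, a receptor for single-stranded RNA in endosomes of myeloid cells, rose from 3.05 ± 0.320 to 11.5 ± 1.95 CPM (mean ± SD, n = 3; log2 fold change 1.91, SE 0.16, adjusted p = 0.000122, edgeR). RNF135, the ligase also called RIPLET that acts on RIG-I, rose by 0.33 on the log2 scale and DDX60L by 0.31. DHX33, a helicase, fell by 0.45 and ZNFX1, a helicase-like protein at mitochondria, fell by 0.23. The calls of RNF135, ZNFX1 and DDX60L were each lost in 8 or more of 17 alternatives, and the number called in this list fell to 2 without DMSO 1 or without any single WD6305 library.

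RIGI, which the table lists under its older symbol DDX58, was close to IFIH1 in pattern. Its level was 6.08, 9.25 and 10.8 CPM in DMSO 1, 2 and 3 and 11.5, 11.3 and 12.4 CPM in WD6305 1, 2 and 3. All WD6305 libraries were above the DMSO libraries, and DMSO 3 was again the highest of its group. The log2 fold change of RIGI was 0.43 (SE 0.19, adjusted p = 0.134, edgeR), and without DMSO 3 it was 0.61 and passed (adjusted p = 0.0388, edgeR). Without DMSO 1 the value for RIGI was 0.23 (adjusted p = 0.246, edgeR). TLR3, with 0 to 13 counts per library, and ZBP1, with 0 in all 6, were too low to test.

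Of 19 other proteins that bind double-stranded RNA, 3 rose and 5 fell, with a median of -0.04. ILF2, an abundant nuclear RNA-binding protein, fell from 386 ± 15.8 to 320 ± 10.3 CPM (log2 fold change -0.27, adjusted p = 0.00436, edgeR). DHX9, a nuclear helicase, fell by 0.28 on the log2 scale. ZFR, a zinc finger protein, rose from 255 ± 19.9 to 327 ± 3.12 CPM (0.36, adjusted p = 0.00259, edgeR). MRPL44, of the mitochondrial ribosome, rose by 0.31 and CDKN2AIP by 0.36. DGCR8, the partner of DROSHA in microRNA processing, fell by 0.25 and ZNF346 fell by 0.36, both named after their values were seen. PRKRA, an activator of PKR chosen in the same way, had a log2 fold change of 0.05 (adjusted p = 0.799, edgeR).

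Of 26 tested genes that carry the signal from MAVS, 10 rose and 2 fell, with a median of 0.14. IRF5, a transcription factor of myeloid cells, rose from 63.2 ± 6.08 to 90.2 ± 4.14 CPM (log2 fold change 0.51, adjusted p = 0.00170, edgeR), and IRF7, which amplifies interferon production, rose from 11.1 ± 0.301 to 15.1 ± 0.771 CPM (0.45, adjusted p = 0.00527, edgeR). TANK, a scaffold of TBK1 and IKK-epsilon, rose from 45.1 ± 4.15 to 61.6 ± 3.12 CPM (0.45, adjusted p = 0.00400, edgeR), while TBKBP1, another scaffold of TBK1, fell from 2.81 ± 0.363 to 1.46 ± 0.136 CPM (-0.94, adjusted p = 0.00936, edgeR). The ligase TRAF6 and the kinase RIPK1, both shared with NF-kB signalling, rose by 0.46 and 0.34. TOMM70, a mitochondrial import receptor that binds MAVS and was named after its values were seen, fell by 0.25. The call of TBKBP1 was lost in the 4 libraries with keratinocyte marker transcripts, and the number called in the list was 8 to 13 with 1 library left out.

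Of 27 tested regulators of MAVS signalling, 6 rose and 2 fell, with a median of 0.02. TNFAIP3, or A20, an inhibitor of NF-kB and of this pathway, rose from 23.1 ± 1.22 to 39.3 ± 1.52 CPM (log2 fold change 0.76, adjusted p = 0.000213, edgeR), and its cofactor TAX1BP1 rose by 0.37, a call kept in 2 of 6 fits with 1 library left out and lost without DMSO 1, DMSO 2, WD6305 1 or WD6305 3. CYLD, a deubiquitinase, rose by 0.58 and TRIM21, a cytosolic antibody receptor and ligase, by 0.67. PCBP2, an RNA-binding protein that promotes loss of MAVS, fell from 492 ± 24.4 to 370 ± 19.8 CPM (-0.41, adjusted p = 0.00127, edgeR), and YWHAE, the 14-3-3 epsilon protein that carries RIG-I to the mitochondrion, fell by 0.36. The number called in this list was 5 without the filter on low counts and under limma on FPKM, and 5 to 8 with 1 library left out.

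**Figure D4:**
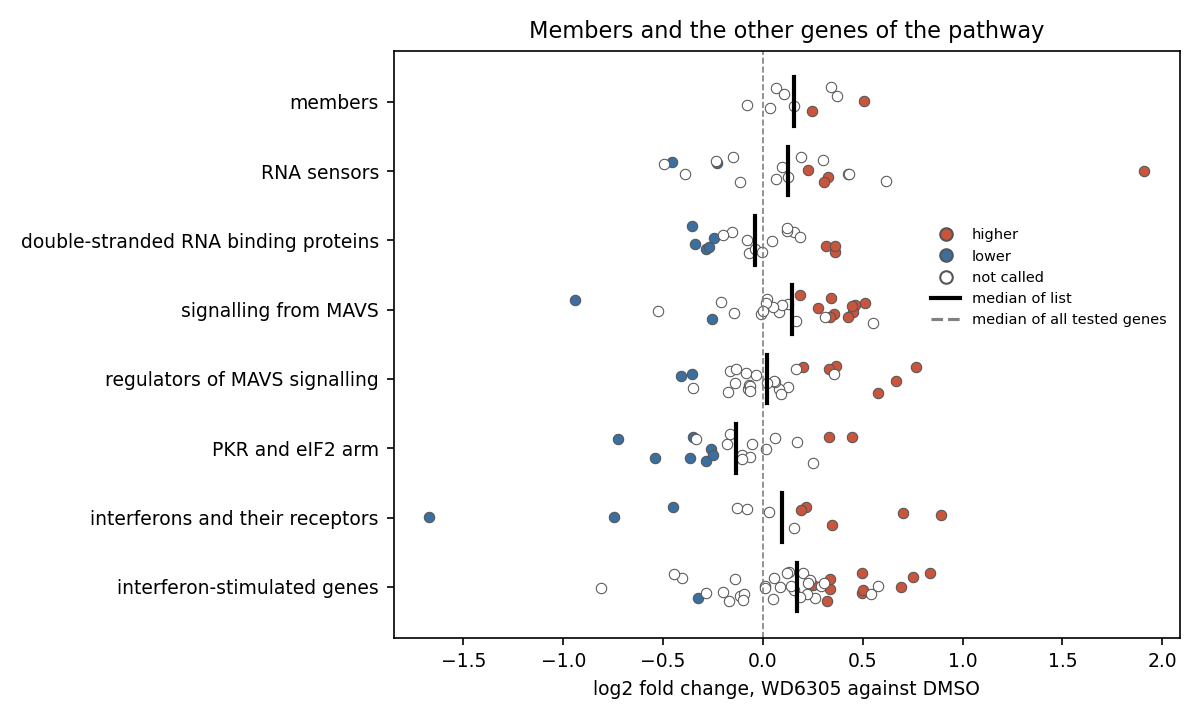
Log2 fold change (x axis) of the 9 members and of the tested genes of 7 pathway lists (rows), with genes called higher in red, lower in blue and not called in white, a black bar for the median of each row and a dashed line for the median of all tested genes. The PKR and eIF2 row has its median at -0.14 and the interferon-stimulated genes at 0.17, and points in both rows lie on both sides of 0.

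The list around PKR and eIF2, which holds the other eIF2-alpha kinases, the subunits of eIF2 and eIF2B and genes further down, had 7 of 20 tested genes that fell, 2 that rose and 11 that did not pass, with a median of -0.14. ATF4, the transcription factor whose translation rises when eIF2-alpha is phosphorylated, fell from 239 ± 6.23 to 165 ± 7.02 CPM (log2 fold change -0.54, adjusted p = 0.000152, edgeR). EIF2S1, which encodes eIF2-alpha itself, fell from 118 ± 1.96 to 96.4 ± 1.32 CPM (-0.29, adjusted p = 0.00182, edgeR). Of the eIF2B exchange factor, EIF2B3 fell by 0.73, EIF2B5 by 0.37 and EIF2B4, named after its values were seen, by 0.26, while EIF2B2 rose by 0.33. EIF2B1, named in the same way, had a log2 fold change of -0.06 (adjusted p = 0.452, edgeR). EIF2AK3, which encodes PERK, the eIF2-alpha kinase of the endoplasmic reticulum, rose from 20.5 ± 1.53 to 27.9 ± 0.918 CPM (0.45, adjusted p = 0.00424, edgeR). EIF2AK2 had a log2 fold change of -0.08 in the same fit.

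Of the interferons and the genes of their receptors, 12 were tested, of which 5 rose and 3 fell, with a median of 0.09. IFNB1, the gene of interferon beta, was listed at 0 in all 6 libraries, where a floor of 3 counts is 0.0422 to 0.0467 CPM and a floor of 12 counts, should 1 read pair be worth 4 counts, is 0.169 to 0.187 CPM. STAT2 rose from 46.5 ± 2.98 to 75.5 ± 4.78 CPM (log2 fold change 0.70, adjusted p = 0.000298, edgeR) and IRF9 from 8.08 ± 0.818 to 15.0 ± 1.84 CPM (0.89, adjusted p = 0.00119, edgeR). Both are parts of ISGF3, the factor that acts below the interferon receptors. JAK1, a kinase of these receptors, rose by 0.35 and IL10RB, a chain shared by the interferon lambda receptor, by 0.21, and TYK2, a partner kinase named after its values were seen, by 0.19. Receptor chain IFNAR2 fell from 84.9 ± 2.76 to 62.2 ± 2.20 CPM (-0.45, adjusted p = 0.000650, edgeR) and IFNLR1 fell by 0.74, a call lost without DMSO 2, as that of IL10RB was without WD6305 3. USP18, a brake on the receptor that interferon induces and that was named after its values were seen, fell from 0.981 ± 0.143 to 0.307 ± 0.103 CPM (-1.67, adjusted p = 0.0146, edgeR). Its counts were low, at 68, 57 and 78 in the DMSO libraries and 24, 13 and 24 in the WD6305 libraries. The 13 in WD6305 2 is close to the floor of 12 counts given above.

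Of 40 tested interferon-stimulated genes, 10 rose, 1 fell and 29 did not pass, with a median of 0.17. TRIM38 rose from 65.7 ± 2.43 to 106 ± 1.79 CPM (log2 fold change 0.69, adjusted p = 7.45e-05, edgeR), SAMD9L by 0.84, TRIM22 by 0.50, SP100, of nuclear bodies, by 0.49 and PLSCR1 by 0.33. The call of PLSCR1 was lost without DMSO 2, WD6305 2 or WD6305 3. SAMHD1, which breaks down deoxynucleotides, fell from 201 ± 11.1 to 161 ± 9.40 CPM (-0.32, adjusted p = 0.00454, edgeR). Some of the genes used most often as signs of an interferon response were examined after their values were seen. IFIT1 had a log2 fold change of 0.23 (adjusted p = 0.696, edgeR) and ISG15 one of 0.20 (adjusted p = 0.457, edgeR), while MX1 rose by 0.50 (adjusted p = 0.0202, edgeR). The count called in this list was 6 to 13 with 1 library left out, 6 without DMSO 2, WD6305 2 or WD6305 3 and 7 without DMSO 1 or WD6305 1.

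The pathway genes most like DHX58 across the 6 libraries, by Euclidean distance between log2 CPM values centred on each gene, were IRF7 (distance 0.102), SP100 (0.108) and CYLD (0.165), of 163 candidates. DHX58 and these 3 genes each had a higher level in all WD6305 libraries than in any DMSO library. Genes chosen for their nearness to DHX58, whose groups do not overlap, tend to share this. Among all tested genes, 40.8% had groups that did not overlap in either direction. The distance is a description of 6 libraries in 2 groups.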

How the data were processed

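Reads of poly(A) RNA were processed by the submitters with fastp, HISAT2, StringTie and edgeR on GRCh38, per the submitters' processing notes. Their versions and options are not stated there. Per the file headers, the deposited table holds an estimated count and an FPKM value per gene and library, with 0 further columns of samples. Deposited estimated counts are whole numbers, so rounding changed none. They pile up at multiples of 4: 1071 to 1176 genes per library had a count of 4, against 553 to 636 with 3 and 357 to 380 with 5. Counting error alone was therefore not relied on, and the edgeR test adds the spread between libraries to it. The deposited FPKM values are the authors' and have 2 decimals, and as the sources used here do not state the transcript length behind them, the order of FPKM levels depends on a length that was not checked.

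Libraries were grouped by the treatment in their labels. Genes were kept with filterByExpr, scaled with TMM factors and tested with the quasi-likelihood test of edgeR 4.0.16 (R 4.3.3) on all 6 libraries without a replicate block, two-sided, with Benjamini-Hochberg adjustment over 18138 genes at 0.05. Standard errors were derived from that fit, as the absolute log2 fold change divided by the square root of the F statistic of the test. The 95% intervals add and subtract this error times a quantile of the t distribution, so both are approximate. Pairs of members were compared as differences of log2(FPKM + 0.1). The fits were tested on simulated data with known changes. Alternatives were DESeq2 1.42.0, other scaling and filters, limma 3.58.1 on log2(FPKM + 1) and log2(FPKM + 0.1), counts divided by 4, a replicate block, leaving out or modelling the 2 libraries that stand apart, and leaving out each library. For the other pathway genes, the rule named up to 6 per list with the smallest adjusted p, METTL3, RIGI, IFNB1 and the 3 genes nearest to the called member with the largest change. Not every gene named by this rule is reported here. The members and lists were chosen with earlier results of these data known.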

Additional observations from a re-analysis of the deposited data

How the results depend on the processing

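The number of members called was 2 in the main test, 4 with a term for the 2 libraries that stand apart and 0 to 4 with 1 library left out. All tested genes called numbered 4249, 3204 to 4957 over the other alternatives, and 2756 to 4640 with 1 library left out, lowest without WD6305 3. The 4 libraries that share keratinocyte marker transcripts gave log2 fold changes of 0.52 for DHX58 (call lost), 0.44 for TBK1 and 0.20 for TRIM25 (calls gained). With a term for the other 2 libraries TBK1 at 0.35 and TRIM25 at 0.15 were called. DESeq2 called TBK1 at 0.33, and TRIM25 was called at 0.14 under the FPKM filter (3 libraries at 1 or more) and at 0.15 with counts divided by 4. MAVS turned to -0.0029 with upper-quartile scaling. With 1 library left out the log2 fold change was 0.46 to 0.54 for DHX58 (called in 2 of 6), 0.21 to 0.30 for IRF3 (called in 3), 0.21 to 0.53 for IFIH1, 0.22 to 0.52 for TBK1 and 0.13 to 0.20 for TRIM25 (each called in 1). Fits with a library left out hold fewer samples, and the cause of these changes was not tested. The number of RNA sensors called was 6, and 3 without the filter on low counts or in those 4 libraries. Of 153 alternative values of the members, 132 kept their direction and side of the threshold. TBKBP1 was not tested under the FPKM filter.

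With the replicate number as a block, 0 members were called: DHX58 had 0.50 (adjusted p = 0.0633, edgeR) and IRF3 0.25 (adjusted p = 0.0575, edgeR), and 2 RNA sensors and 3204 genes in all were called. Deviations of same-numbered libraries correlated at -0.202, 0.0649 and -0.13, and not every library correlated best with the one of its own number, so the numbers were not taken to pair the libraries.

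Depth limits what can be said of genes with few counts, such as TLR3 and those listed at 0. The smallest p of the permutation test was 0.1.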
